A study of Mus musculus with 9 samples.

Results

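The genes described here are 27 genes of cholesterol synthesis and of its control by the transcription factor SREBP2. They were taken by name from a pathway list, drawn up with earlier results of these data known, and no measured value enters the rule: 20 enzymes from the thiolases to the last steps that make cholesterol, 4 genes that sense or transmit the sterol level (Srebf2, Scap, Insig1, Insig2), and 3 that act in sterol uptake, transport or storage (Stard4, Mylip, Soat1). All 27 were found among the 46078 genes of the expression table, and all 27 were among the 11952 genes tested, which had at least 1 FPKM (read fragments per 1000 bases of transcript, relative to the size of the library) in at least 3 libraries. Each of them also exceeded 1 FPKM in all 3 bone marrow libraries, so none was tested only because it was high in a fetal liver culture.

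The study compared RNA from 3 long-term cultures of C57BL/6J mouse macrophages, with 3 libraries each. BMM came from bone marrow, and the labels do not describe their growth medium. FLM_M came from fetal livers of gestational day 15 to 19 and grew in 20% fetal bovine serum with 30% L-cell supernatant, the latter a source of the growth factor M-CSF. FLM_G came from fetal livers of the same stage and grew in 10% fetal bovine serum with 30 ng/ml recombinant mouse GM-CSF. All cultures were at least 8 weeks old, and cells were plated in triplicate at 250000 per well 1 day before harvest. The 2 fetal liver cultures thus differed in growth factor and in serum, and these cannot be told apart. BMM and the fetal liver cultures differed in tissue of origin, in age of the donor and in sex-linked transcripts, and these cannot be told apart. The growth medium of BMM is not described, so a difference in medium cannot be told apart from these either. Xist averaged 0.002 FPKM in BMM, 70.9 in FLM_M and 48.5 in FLM_G, and the Y-linked Eif2s3y averaged 11.0, 0 and 0. Nothing in the labels says that the 3 libraries of a group came from separate cultures or animals, so p-values measure the spread between these libraries only. In such bulk RNA, fewer cells of a type and less RNA per cell cannot be told apart.

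Cholesterol is built from acetyl-CoA. Thiolases and HMG-CoA synthase begin the chain, mevalonate kinases and a decarboxylase turn mevalonate into the isoprenoid unit, prenyl synthases join these units into farnesyl diphosphate, and squalene is then made, oxidised and closed to lanosterol, which a series of endoplasmic reticulum enzymes trims to cholesterol. SREBP2 is held in the endoplasmic reticulum by SCAP and an INSIG protein when membrane sterol is plentiful. When sterol is low, SCAP carries SREBP2 to the Golgi, where proteases free its transcription factor domain, and that domain turns on the synthesis genes, its own gene and Insig1. Macrophages take up cholesterol from lipoproteins and dead cells, store the excess as esters and export it, and in macrophages oxysterols act through INSIG and through the nuclear receptor LXR.

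SREBP2 acts at promoters together with the CCAAT-binding factor NF-Y and the GC-box factor Sp1. RefSeq promoter windows on GRCm38.p6, from 250 bases before to 50 bases after the annotated start, were on hand for 22 of the 27 genes, all except Acat1, Fdps, Fdft1, Sqle and Stard4. The stretches printed below lie before the start of the 5 genes with the largest FLM_G to FLM_M difference whose window held at least 100 bases outside annotated exons. They end 50 bases before the RefSeq start for Cyp51 and Insig1, and 1 base before it for Mvd, Hmgcs1 and Sc5d. These 5 genes are shown because they had the widest range between the fetal liver cultures among genes with such a window. Of the 5 genes, 4 were called lower in FLM_M against BMM in the test described below, and Sc5d was not. Of all tested genes, 21.9% were called lower there. The choice of the 5 genes used the same FLM_M libraries, so this count is not a separate observation. Each is written 5′ to 3′ on the strand of the gene, and capitals mark, on either strand, the NF-Y box CCAAT, the GC box spelled GGGCGG and a strict sterol element, given by its letters after the sequences. The stretches are Mvd at chr8:122443423-122443622 (minus strand), Cyp51 at chr5:4104747-4104946 (minus strand), Insig1 at chr5:28071163-28071362 (plus strand), Hmgcs1 at chr13:119690151-119690350 (plus strand) and Sc5d at chr9:42264301-42264500 (minus strand).
Mvd: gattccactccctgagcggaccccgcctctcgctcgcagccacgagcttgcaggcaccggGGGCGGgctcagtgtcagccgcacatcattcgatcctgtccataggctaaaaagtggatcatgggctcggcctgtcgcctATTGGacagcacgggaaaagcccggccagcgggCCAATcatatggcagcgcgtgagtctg
Cyp51: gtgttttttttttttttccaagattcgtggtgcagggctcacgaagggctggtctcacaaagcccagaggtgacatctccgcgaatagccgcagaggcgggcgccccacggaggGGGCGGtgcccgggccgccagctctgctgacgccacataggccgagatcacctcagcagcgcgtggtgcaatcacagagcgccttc
Insig1: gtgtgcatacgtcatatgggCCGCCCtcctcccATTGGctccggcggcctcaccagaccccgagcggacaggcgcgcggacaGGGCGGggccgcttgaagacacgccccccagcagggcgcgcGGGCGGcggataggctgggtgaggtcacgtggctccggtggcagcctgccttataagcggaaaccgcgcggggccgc
Hmgcs1: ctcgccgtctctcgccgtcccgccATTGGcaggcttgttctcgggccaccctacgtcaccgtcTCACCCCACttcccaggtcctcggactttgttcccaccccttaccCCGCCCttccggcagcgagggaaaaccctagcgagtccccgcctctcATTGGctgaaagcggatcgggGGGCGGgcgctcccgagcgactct
Sc5d: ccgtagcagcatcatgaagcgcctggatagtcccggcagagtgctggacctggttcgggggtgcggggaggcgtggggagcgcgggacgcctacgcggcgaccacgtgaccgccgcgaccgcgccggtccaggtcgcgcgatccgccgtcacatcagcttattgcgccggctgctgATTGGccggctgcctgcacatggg

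Among the 22 windows, 20 (90.9%) held CCAAT on either strand, against 43.2% of the 8198 tested genes with a window and 41.1% of all 27025 windows. GGGCGG was also present in 20 of 22 (90.9%), against 69.8% of the tested genes and 38.2% of all. The strict sterol element TCACNCCAC was found in 1 of 22 (4.55%), that of Hmgcs1, against 1.38% of tested genes. The E-box CACGTG was in 5 of 22 (22.7%), those of Hsd17b7, Sc5d, Dhcr7, Scap and Insig1, against 12.4% of tested genes. Motifs were searched separately on both strands, so 1 base may count in several, and the median GC content of the 22 windows was 61.2%, beside 60.7% for the tested genes. A match is a run of letters and not a measured binding site.

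The libraries stood behind these values as follows. The steps between low FPKM of genes with 1 annotated transcript imply 28550000 to 35680000 reads per library, so that 1 FPKM over 1000 bases of transcript stands for 28.6 to 35.7 reads. The depth was chosen, out of many tried, to make the share of low values, those under 5 reads, whole to within 0.02 of a read as large as possible. That share was 28.9% to 34.3%. Chance would give 4% at a depth fixed in advance, which is not the chance level for a depth chosen in this way. Log2 levels of tested genes correlated across genes at 0.9858 to 0.9917 within groups and 0.7844 to 0.9345 between groups. All 8 macrophage markers exceeded 1 FPKM in every group, while 6 of 8 hepatocyte markers, Alb, Apoa1, Ttr, Ahsg, Apob and Serpina1a, were listed at 0 in every group. Levels of the macrophage markers differed between groups. In FLM_M against BMM, 4 were called higher and 2 lower (22.7% and 21.9% of all tested genes). In FLM_G against BMM, 3 were called higher and 4 lower (33.8% and 34.1%). The Y-linked genes listed were above 1 FPKM only in BMM, and Xist only in the fetal liver cultures. Nsdhl and Ebp are the only X-linked genes among the 27, and the part of sex in the values of any of the 27 was not tested.

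Cholesterol synthesis transcripts were lowest in FLM_M and highest in FLM_G, with BMM between them. The FPKM of the 20 enzymes, scaled between libraries, added up to 237, 222 and 215 in BMM, 139, 142 and 143 in FLM_M, and 653, 645 and 646 in FLM_G. The groups were far apart in this sum: the lowest FLM_G library was above every BMM library, and the lowest BMM library was above every FLM_M library. In 18 of the 27 genes the 9 libraries fell in the order FLM_M, BMM, FLM_G without any overlap between neighbouring groups, an order seen in 9.96% of all tested genes. Ggps1 alone showed the reverse order without overlap, which 11.1% of all tested genes showed.

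**Figure D1:**
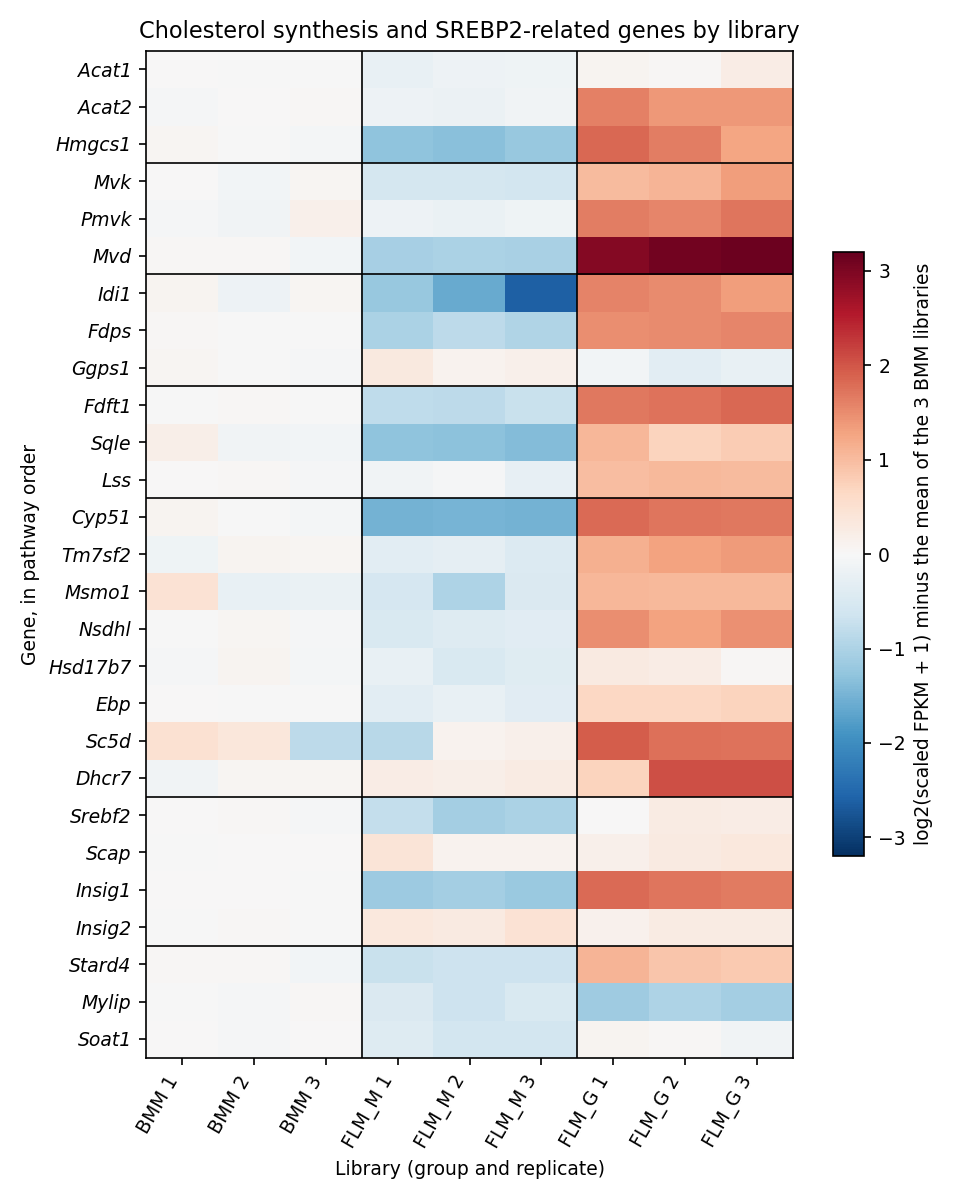
Level of each of the 27 genes in each of the 9 libraries, in pathway order, as log2(scaled FPKM + 1) minus the mean of the 3 BMM libraries; rows are genes and columns are libraries. Most rows are below BMM in the 3 FLM_M columns and above it in the 3 FLM_G columns, while Ggps1 and Mylip are below it in FLM_G.

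Group differences were tested with limma on log2(scaled FPKM + 1) and called at a Benjamini-Hochberg adjusted p below 0.05 over all tested genes. In FLM_M against BMM, 19 of the 27 were lower, where 21.9% of all tested genes were called lower, and 1 (Insig2) was higher, where 22.7% were. The median log2 difference over the 27 was -0.52, beside -0.0015 for all tested genes. The 7 not called were Acat2, Pmvk, Ggps1, Lss, Sc5d, Dhcr7 and Scap. At least 2-fold lower on the log2 scale were 6 of the 27, where 3.29% of all tested genes were, and 0 were higher by that much, where 3.74% were. All FLM_M libraries lay below all BMM libraries for 22 of the 27, which held for 28.4% of all tested genes, and above them for 4, which held for 28.9%.

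In FLM_G against BMM, 21 of the 27 were higher, where 33.8% of all tested genes were called higher, and 2 (Ggps1 and Mylip) were lower, where 34.1% were. Their median log2 difference was 1.14, and 16 were higher by at least 2-fold, where 9.84% of all tested genes were. Mylip was the 1 gene at least 2-fold lower, where 8.91% were. The libraries did not overlap for 22 genes higher in FLM_G (36.1% of all tested genes) and 2 lower (37.1%). Acat1, Hsd17b7, Srebf2 and Soat1 were not called. In FLM_G against FLM_M, 23 were higher, where 35.5% of all tested genes were called higher, and again Ggps1 and Mylip were lower, where 35.1% were called lower. The median there was 1.62, 19 were higher by at least 2-fold against 11.3% of all tested genes, and only Scap and Insig2 were not called. None was at least 2-fold lower, where 10.2% of all tested genes were. Libraries of the fetal liver cultures did not overlap for 23 genes higher in FLM_G and 3 lower, which held for 36.2% and 36.2% of all tested genes. The 3 comparisons share libraries with each other, so their counts are not separate observations.

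**Figure D2:**
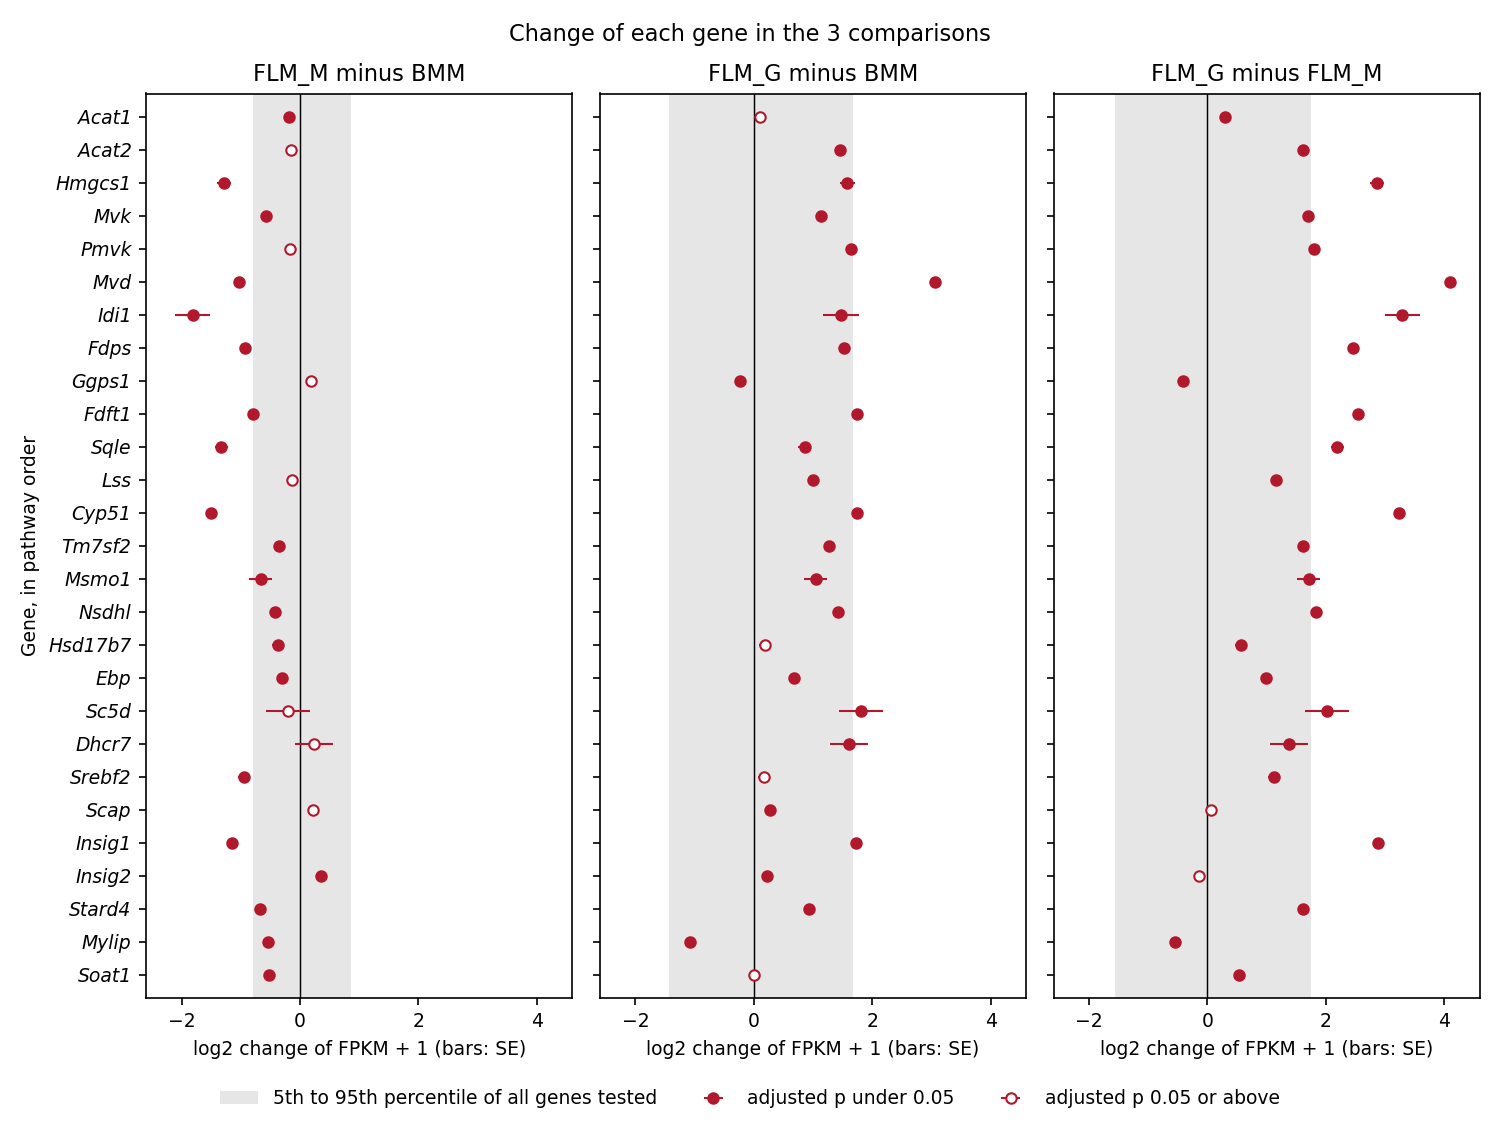
Log2 difference of each of the 27 genes, on the log2(scaled FPKM + 1) scale, in FLM_M against BMM, FLM_G against BMM and FLM_G against FLM_M, with bars for the standard error of the limma fit, filled points for adjusted p below 0.05 and grey bands from the 5th to the 95th percentile of all tested genes. Mvd has the largest differences from FLM_G to both other cultures, at 3.06 against BMM and 4.09 against FLM_M.

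Both calls, lower in FLM_M than in BMM and higher in FLM_G than in BMM, were met by 14 genes: Hmgcs1, Mvk, Mvd, Idi1, Fdps, Fdft1, Sqle, Cyp51, Tm7sf2, Msmo1, Nsdhl, Ebp, Insig1 and Stard4. Of all tested genes 7.46% met both calls, and both comparisons use the same BMM libraries. No gene of the 27 met the opposite pair of calls, which 8.45% of all tested genes met. Mylip was the only one called lower in both fetal liver cultures, where 9.75% of all tested genes were.

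The chain opens with 2 thiolases and HMG-CoA synthase. Acat1, the mitochondrial acetoacetyl-CoA thiolase that also serves ketone body and isoleucine metabolism, varied little, at 19.7, 19.3 and 19.1 FPKM in BMM, 16.2, 17.2 and 17.5 in FLM_M, and 20.5, 19.8 and 22.8 in FLM_G. Its log2 difference was -0.18 in FLM_M against BMM (SE 0.06, adjusted p 0.035) and 0.11 in FLM_G against BMM (adjusted p 0.124). The first call did not hold when any 1 of the 6 BMM and FLM_M libraries was left out (adjusted p 0.0634 to 0.115). Acat2, the cytosolic thiolase that supplies the sterol pathway, stood at 7.16, 7.49 and 7.68 FPKM in BMM, 6.56, 6.47 and 6.81 in FLM_M, and 24.8, 21.1 and 21.0 in FLM_G. FLM_G thus had 3.00 times the BMM mean (log2 difference 1.46, SE 0.07, adjusted p 1.47e-07), while FLM_M did not pass the test against BMM (-0.15, adjusted p 0.116). The near-identical neighbouring gene Acat3 was at a mean of 0.827, 0.839 and 1.51 FPKM in the 3 groups, and nothing in the sources used here says how reads were divided between both.

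Hmgcs1 makes HMG-CoA in the cytosol and is a standard readout of SREBP2. It stood at 26.5, 25.2 and 24.5 FPKM in BMM, at 9.77, 9.41 and 10.3 in FLM_M, and at 93.3, 81.0 and 62.8 in FLM_G. The 3 groups did not overlap, and the FLM_G libraries spread most. FLM_M had 0.387 times the BMM mean (log2 difference -1.29, SE 0.12, adjusted p 4.34e-05), and FLM_G had 3.11 times (1.58, SE 0.12, adjusted p 4.72e-06). Between the fetal liver cultures the ratio of means was 8.03.

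All 3 genes that carry mevalonate to isopentenyl diphosphate were higher in FLM_G than in either other culture. Of all tested genes, 33.8% were called higher against BMM and 35.5% against FLM_M. Mvk, mevalonate kinase, was at 5.90, 5.43 and 6.03 FPKM in BMM, 3.63, 3.60 and 3.51 in FLM_M, and 12.7, 13.3 and 16.0 in FLM_G. FLM_M was at 0.619 times BMM (log2 difference -0.57, SE 0.08, adjusted p 0.000656), and FLM_G at 2.42 times. Pmvk, phosphomevalonate kinase, was at 11.1, 10.4 and 12.8 FPKM in BMM, 10.2, 9.76 and 10.4 in FLM_M, and 37.6, 35.6 and 39.8 in FLM_G. Only its rise in FLM_G passed, at 3.29 times BMM (log2 difference 1.64, SE 0.08, adjusted p 1.39e-07). In FLM_M its log2 difference was -0.16 (adjusted p 0.124).

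Mvd, the mevalonate diphosphate decarboxylase, showed the largest difference of the 27 in both comparisons with FLM_G, and the sixth largest fall in FLM_M against BMM. BMM libraries had 11.0, 11.0 and 10.1 FPKM, FLM_M libraries 4.58, 4.83 and 4.74, and FLM_G libraries 89.4, 98.0 and 102. FLM_M was at 0.440 times BMM (log2 difference -1.03, SE 0.06, adjusted p 1.81e-06) and FLM_G at 9.0 times BMM (3.06, SE 0.06, adjusted p 5.5e-10), which makes 20.4 times FLM_M. As a share of the summed FPKM of the 20 enzymes, Mvd took 4.77% ± 0.18 in BMM, 3.33% ± 0.056 in FLM_M and 14.9% ± 1.1 in FLM_G (SD, n = 3). This share is taken within a library and so does not depend on the scaling between libraries. Per unit length, Mvd was the most abundant of the 27 in FLM_G.

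**Figure D3:**
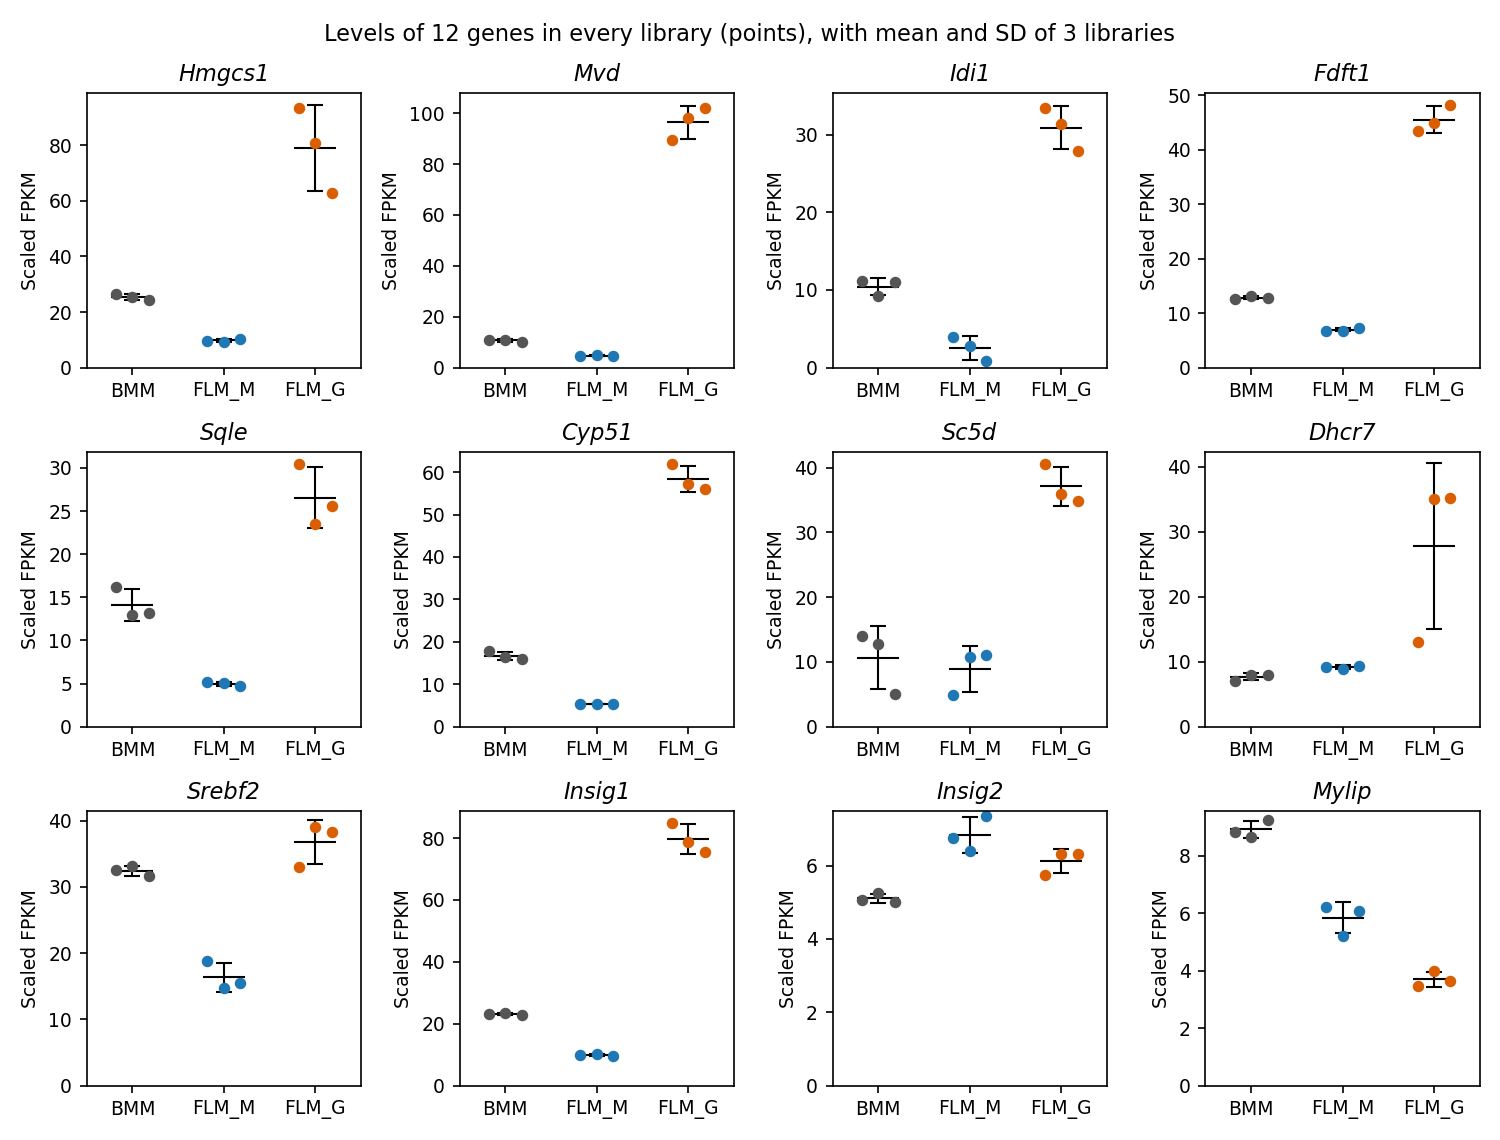
Scaled FPKM in every library for 12 of the 27 genes (Hmgcs1, Mvd, Idi1, Fdft1, Sqle, Cyp51, Sc5d, Dhcr7, Srebf2, Insig1, Insig2 and Mylip), with a separate linear axis from 0 for each gene; points are libraries, horizontal lines are group means and bars are SD over 3 libraries. The FLM_G points of Mvd lie at 89.4 to 102, above its other points, while those of Mylip, at 3.49 to 3.99, lie below its other points.

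The isoprenoid steps split. Idi1, the isomerase of isopentenyl diphosphate, was at 11.1, 9.22 and 11.0 FPKM in BMM, 3.93, 2.73 and 0.857 in FLM_M, and 33.4, 31.3 and 28.0 in FLM_G. Its FLM_M libraries differed by more than those of any other gene of the list in that culture relative to their mean, and it still passed the test against BMM (log2 difference -1.81, SE 0.30, adjusted p 0.00125). Fdps, farnesyl diphosphate synthase, was at 15.3, 14.7 and 14.8 FPKM in BMM, 6.96, 7.98 and 7.15 in FLM_M, and 43.8, 44.7 and 46.1 in FLM_G. FLM_M thus had 0.493 times the BMM mean and FLM_G 3.00 times (log2 difference 1.52, SE 0.06, adjusted p 2.42e-08).

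Ggps1, which makes geranylgeranyl diphosphate for protein prenylation and lies on a branch away from sterols, ran the other way. It was at 6.79, 6.43 and 6.26 FPKM in BMM, 8.31, 7.11 and 7.33 in FLM_M, and 6.05, 4.90 and 5.33 in FLM_G. FLM_G was at 0.716 times FLM_M (log2 difference -0.42, SE 0.08, adjusted p 0.00162). Against BMM the difference was -0.22 in FLM_G (adjusted p 0.0371), a call lost when BMM replicate 1, 2 or 3 or FLM_G replicate 2 or 3 was left out (adjusted p 0.0501 to 0.167), and 0.19 in FLM_M (adjusted p 0.0874).

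The 3 genes from farnesyl diphosphate to lanosterol were all higher in FLM_G, where 33.8% of all tested genes were called higher against BMM and 35.5% against FLM_M. Fdft1, squalene synthase, was at 12.6, 13.1 and 12.7 FPKM in BMM, 6.81, 6.78 and 7.36 in FLM_M, and 43.4, 44.8 and 48.2 in FLM_G, or 0.545 and 3.55 times the BMM mean (log2 difference in FLM_G 1.75, SE 0.05, adjusted p 9.11e-09). Ctsb, a lysosomal protease gene that overlaps Fdft1 on the opposite strand, was at a mean of 1828 FPKM in BMM, 1482 in FLM_M and 1097 in FLM_G, lower in FLM_G than in BMM where Fdft1 was higher. Deposited counts of Fdft1, from a separate table of the authors, were 2906, 3115 and 3410 in BMM, 3088, 3287 and 3465 in FLM_M, and 957, 1061 and 1037 in FLM_G. These counts fell in FLM_G where the FPKM rose, and in this they ran with Ctsb.

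Sqle, squalene epoxidase and a rate-limiting enzyme, was at 16.2, 12.9 and 13.2 FPKM in BMM, 5.20, 5.05 and 4.74 in FLM_M, and 30.5, 23.5 and 25.6 in FLM_G. The ratios to BMM were 0.354 in FLM_M (log2 difference -1.33, SE 0.11, adjusted p 1.54e-05) and 1.88 in FLM_G (0.87, SE 0.11, adjusted p 0.000117). The first of these log2 differences was the larger in size, and the difference between them was not tested. Lss, which closes the ring to lanosterol, was low throughout, at 2.56, 2.62 and 2.43 FPKM in BMM, 2.27, 2.42 and 1.93 in FLM_M, and 6.01, 6.22 and 6.08 in FLM_G. Its rise in FLM_G passed the test at 2.41 times BMM (log2 difference 1.01, SE 0.07, adjusted p 1.37e-06), and its log2 difference of -0.14 in FLM_M did not (adjusted p 0.113).

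Of the 8 genes that turn lanosterol into cholesterol, 6 were called lower in FLM_M against BMM, where 21.9% of all tested genes were. In FLM_G, 7 were called higher against BMM (33.8% of all tested genes), and all 8 against FLM_M (35.5%). Cyp51, the lanosterol 14-alpha-demethylase, had the largest fall of the 8 in FLM_M. It was at 17.8, 16.5 and 16.0 FPKM in BMM, at 5.27, 5.29 and 5.27 in FLM_M, and at 61.8, 57.3 and 55.9 in FLM_G. FLM_M was at 0.315 times BMM (log2 difference -1.50, SE 0.06, adjusted p 9.09e-08) and FLM_G at 3.48 times (1.74, SE 0.06, adjusted p 1.12e-08), so that FLM_G had 11.1 times the FLM_M level. Tm7sf2, a sterol C14-reductase, was the lowest of the 27 in BMM and FLM_M, at 1.20, 1.53 and 1.49 FPKM in BMM, 0.909, 0.961 and 0.766 in FLM_M, and 4.28, 4.87 and 5.20 in FLM_G. FLM_G had 3.40 times its BMM mean (log2 difference 1.26, SE 0.08, adjusted p 1.38e-06). FLM_M had 0.625 times the BMM mean (-0.36, SE 0.08, adjusted p 0.00787). Vps51, which overlaps Tm7sf2 on the same strand, was lower in FLM_M than in BMM by a similar amount (log2 difference -0.34, adjusted p 0.00171), did not pass in FLM_G against BMM (-0.14, adjusted p 0.0604) and was higher in FLM_G than in FLM_M (0.20, adjusted p 0.0159). Its part in the Tm7sf2 values was not tested.

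Msmo1, the sterol C4-methyl oxidase, was at 16.1, 9.53 and 9.86 FPKM in BMM, 7.62, 5.35 and 8.06 in FLM_M, and 24.9, 24.9 and 24.8 in FLM_G. BMM replicate 1 stood above the other 2 BMM libraries. The call in FLM_M against BMM (log2 difference -0.66, SE 0.20, adjusted p 0.0235) was lost without FLM_M replicate 2 (-0.49, adjusted p 0.0791). Nsdhl, which removes the C4 carboxyl group, was at 8.28, 8.83 and 8.24 FPKM in BMM, 5.79, 6.12 and 6.37 in FLM_M, and 25.5, 22.2 and 25.0 in FLM_G, or 0.721 and 2.87 times BMM. Both differences passed (adjusted p 0.000877 and 1.13e-07). Hsd17b7, a 3-ketosteroid reductase of the same complex, was at 4.20, 4.69 and 4.08 FPKM in BMM, 3.53, 2.76 and 3.03 in FLM_M, and 5.45, 5.30 and 4.44 in FLM_G. BMM and FLM_G overlapped (log2 difference 0.19, adjusted p 0.11), a difference that passed without FLM_G replicate 3 (0.28, adjusted p 0.0302), and FLM_M was at 0.719 times BMM (adjusted p 0.0111).

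Ebp, the sterol isomerase, was among the most abundant of the 27 in BMM and FLM_M and in the middle of the list in FLM_G, at 22.5, 22.0 and 21.9 FPKM in BMM, 17.4, 18.8 and 16.9 in FLM_M, and 35.7, 35.3 and 36.6 in FLM_G. Its differences were small and regular, at 0.801 times BMM in FLM_M (log2 difference -0.31, SE 0.05, adjusted p 0.000877) and 1.62 times in FLM_G (0.67, SE 0.05, adjusted p 2.38e-06). Ebp had the highest level per unit length of all 27 in FLM_M. Sc5d, the lathosterol desaturase, was at 14.0, 12.8 and 5.11 FPKM in BMM, 4.87, 10.8 and 11.0 in FLM_M, and 40.6, 35.9 and 34.9 in FLM_G. BMM and FLM_M overlapped widely (log2 difference -0.20, SE 0.37, adjusted p 0.7), and the sign turned without BMM replicate 1 (0.03) or FLM_M replicate 1 (0.15). In contrast, every FLM_G library lay above both, and FLM_G had 3.48 times the BMM mean (1.81, SE 0.37, adjusted p 0.00242).

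Dhcr7, the last reductase before cholesterol, departed from the common order in BMM and FLM_M. It was at 7.04, 7.96 and 7.97 FPKM in BMM, 9.23, 8.90 and 9.37 in FLM_M, and 13.1, 35.0 and 35.2 in FLM_G. FLM_G replicate 1 was far below the other 2 libraries of its group and still above every BMM and FLM_M library. The rise in FLM_G passed at 3.62 times BMM (log2 difference 1.61, SE 0.32, adjusted p 0.00187). The FLM_M libraries all lay above the BMM libraries without passing the test (0.23, SE 0.32, adjusted p 0.592), and with FLM_G replicate 1 left out this difference did pass (adjusted p 0.0113), as it did when FLM_G was left out of the fit (0.23, adjusted p 0.0245).

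The 4 sensing genes did not move as one. Srebf2, the gene of SREBP2, was at 32.5, 33.1 and 31.6 FPKM in BMM, 18.8, 14.7 and 15.5 in FLM_M, and 32.9, 39.0 and 38.3 in FLM_G. It fell to 0.504 times BMM in FLM_M (log2 difference -0.95, SE 0.10, adjusted p 5.59e-05). FLM_G overlapped BMM (0.17, SE 0.10, adjusted p 0.138), and this difference passed without FLM_G replicate 1 (0.27, adjusted p 0.037). It passed in the opposite direction without scaling between libraries (-0.24, adjusted p 0.0467). Srebf2 was the most abundant of the 27 per unit length in BMM. Insig1, an SREBP2 target whose product retains SCAP, followed the enzymes at 23.2, 23.5 and 22.9 FPKM in BMM, 9.86, 10.3 and 9.63 in FLM_M, and 84.8, 78.7 and 75.5 in FLM_G. FLM_M was at 0.428 times BMM (log2 difference -1.15, SE 0.05, adjusted p 3.13e-07) and FLM_G at 3.43 times (1.73, SE 0.05, adjusted p 7.5e-09).

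Insig2, the paralogue of Insig1 that is not driven by SREBP2 in the same manner, was at 5.07, 5.26 and 5.01 FPKM in BMM, 6.75, 6.40 and 7.36 in FLM_M, and 5.75, 6.31 and 6.31 in FLM_G. It was the only one of the 27 called higher in FLM_M than in BMM (1.34 times, log2 difference 0.36, SE 0.06, adjusted p 0.00177), and it was 1.20 times BMM in FLM_G (0.22, SE 0.06, adjusted p 0.013). The ratio of Insig1 to Insig2 within a library was 4.55 ± 0.062 in BMM, 1.46 ± 0.15 in FLM_M and 13.1 ± 1.5 in FLM_G (SD, n = 3), without overlap between groups. Scap, the escort of SREBP2, was at 6.43, 6.52 and 6.53 FPKM in BMM, 8.89, 7.15 and 7.12 in FLM_M, and 7.44, 8.20 and 8.46 in FLM_G. Its log2 difference of 0.27 in FLM_G against BMM (SE 0.08, adjusted p 0.0203) was lost without BMM replicate 1, 2 or 3 or FLM_G replicate 3 (adjusted p 0.0512 to 0.0587), and its difference of 0.21 in FLM_M did not pass (adjusted p 0.0712).

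**Figure D4:**
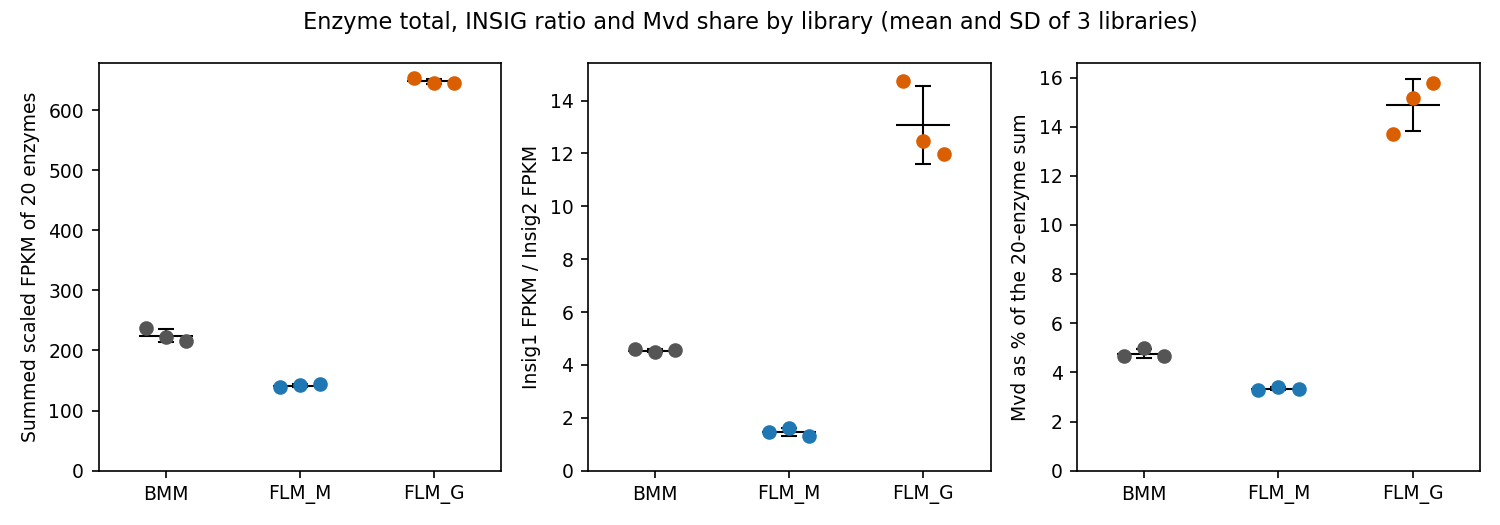
Summed scaled FPKM of the 20 enzymes, the ratio of Insig1 to Insig2, and the share of Mvd in the enzyme sum, in every library with group means and SD over 3 libraries. In each panel the FLM_M points are lowest and the FLM_G points highest, at a ratio of Insig1 to Insig2 of 1.46 and 13.1.

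The remaining genes move or dispose of cholesterol. Stard4, a soluble sterol carrier and SREBP2 target, was at 8.29, 8.17 and 7.54 FPKM in BMM, 4.52, 4.64 and 4.67 in FLM_M, and 18.2, 15.7 and 15.0 in FLM_G. It followed the enzymes at 0.576 times BMM in FLM_M (log2 difference -0.68, SE 0.07, adjusted p 9.25e-05) and 2.03 times in FLM_G (0.94, SE 0.07, adjusted p 4.85e-06). Mylip, a ubiquitin ligase induced by LXR that limits sterol uptake, was at 8.84, 8.66 and 9.25 FPKM in BMM, 6.23, 5.22 and 6.09 in FLM_M, and 3.49, 3.99 and 3.64 in FLM_G. FLM_G had 0.415 times the BMM level (log2 difference -1.08, SE 0.07, adjusted p 1.76e-06) and FLM_M had 0.656 times (-0.54, SE 0.07, adjusted p 0.000392). Mylip was the least abundant of the 27 in FLM_G. Soat1, which esterifies cholesterol for storage, was at 23.5, 22.5 and 23.2 FPKM in BMM, 17.2, 15.1 and 15.1 in FLM_M, and 24.7, 23.8 and 21.3 in FLM_G. It was lower in FLM_M (0.685 times BMM, adjusted p 0.000388), while BMM and FLM_G overlapped (log2 difference 0.01, SE 0.07, adjusted p 0.924).

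The libraries of a group differed little for most of the 27. The median coefficient of variation was 4.04% in BMM, 5.41% in FLM_M and 7.47% in FLM_G. It exceeded 25% for Msmo1 and Sc5d in BMM, Idi1 and Sc5d in FLM_M and Dhcr7 in FLM_G. No library stood above its group throughout: the 3 BMM libraries held the highest value of their group for 13, 8 and 6 of the genes, the FLM_M libraries for 9, 7 and 11, and the FLM_G libraries for 13, 4 and 10. Against the 5th to 95th percentile of log2 differences of all tested genes, 8 of the 27 lay below the range in FLM_M against BMM (-0.80 to 0.86). Above the range lay 5 in FLM_G against BMM (-1.42 to 1.68) and 11 in FLM_G against FLM_M (-1.56 to 1.75).

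Without scaling between libraries, the median of all tested genes shifted by 0.05 in FLM_M against BMM, by -0.34 in FLM_G against BMM and by -0.39 in FLM_G against FLM_M. The members' medians were then -0.46, 0.755 and 1.26. The split of members was 3 higher and 18 lower, 19 higher and 5 lower, and 20 higher and 5 lower, in the same order of comparisons. Acat1, Hsd17b7, Srebf2, Scap, Insig2 and Soat1 changed sign in FLM_G against BMM, and Hsd17b7 was not called either way (-0.16, adjusted p 0.17 without scaling). Acat1, Srebf2 and Soat1 were then called lower (adjusted p 0.00141, 0.0467 and 0.00128), and Scap and Insig2 lost their calls. For all tested genes the split without scaling was 3323 higher and 2240 lower, 2081 higher and 6775 lower, and 2218 higher and 7075 lower, where with scaling it was 2716 and 2613, 4044 and 4081, and 4246 and 4195. On the deposited counts, edgeR tested only 12 of the 27 members and 7490 genes in all. It called 0, 5 and 7 of the 12 higher and 3, 1 and 1 lower, beside 1300, 2458 and 2855 of the 7490 genes in either direction. Acat1, Fdft1 and Sqle had the opposite sign on the counts in at least 1 comparison.

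Other genes around the sterol pathway were counted from lists chosen by function. For every list, the background is the share of all tested genes called. It was 22.7% higher and 21.9% lower in FLM_M against BMM, and 33.8% and 34.1% in FLM_G against BMM. Of 14 further genes of sterol sensing and SREBP handling, 2 were higher and 4 lower in FLM_M against BMM, and 4 were higher and 5 lower in FLM_G against BMM. Among them Erlin1, an endoplasmic reticulum protein of the sterol-regulated degradation machinery, fell to a mean of 10.8 FPKM in FLM_M and 4.86 in FLM_G from 16.6 in BMM (log2 differences -0.58 and -1.58). Trib1, a pseudokinase, was higher in FLM_M than in BMM (0.63, adjusted p 5.03e-05). Pgrmc1, a sterol and haem binding protein, and the chaperone Hsp90b1 were lower in FLM_M than in BMM (-0.58 and -0.40). Mbtps2, a protease that frees SREBPs in the Golgi, and March6, a ubiquitin ligase that degrades squalene epoxidase, were higher in FLM_G than in BMM (0.62 and 0.38, adjusted p 0.00209 and 0.0129), and Hsp90b1 was lower there (-0.34). Of 12 tested genes on isoprenoid branches away from sterols, 1 was higher and none lower in FLM_M against BMM, and 5 were higher and 3 lower in FLM_G. Nus1, a subunit of the enzyme that starts dolichol synthesis, was at 20.3 ± 1.8 FPKM in BMM, 18.4 ± 1.3 in FLM_M and 38.3 ± 2.5 in FLM_G (SD, n = 3), and of the differences from BMM only that of FLM_G passed (0.88, adjusted p 1.29e-05). Srd5a3, Dolk and Dhdds, further genes of the dolichol branch, were also higher in FLM_G than in BMM (0.78, 0.53 and 0.49), and Srd5a3 was the gene higher in FLM_M (0.25, adjusted p 0.0231). Pggt1b, a subunit of a protein prenyltransferase, was lower in FLM_G than in FLM_M (-0.46, adjusted p 0.00451).

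Of 15 tested genes of sterol transport, storage and oxysterol formation, 4 were higher and 8 lower in FLM_M against BMM, and 3 were higher and 7 lower in FLM_G. Ch25h, which makes 25-hydroxycholesterol, an oxysterol that binds INSIG proteins, ran opposite to the enzymes. It was at 11.3, 11.5 and 10.9 FPKM in BMM, 54.7, 64.0 and 55.3 in FLM_M, and 4.93, 5.48 and 4.76 in FLM_G. The groups did not overlap, with log2 differences from BMM of 2.26 in FLM_M (SE 0.07, adjusted p 3.76e-08) and -1.02 in FLM_G (SE 0.07, adjusted p 2.52e-06). Cyp27a1, the 27-hydroxylase, was higher in FLM_M than in BMM (log2 difference 0.96, adjusted p 3.11e-05) and not called in FLM_G (0.17, adjusted p 0.121). Lipa, the lysosomal acid lipase that frees cholesterol from lipoproteins taken up, was at 419 ± 6.2 FPKM in BMM, 217 ± 14 in FLM_M and 731 ± 37 in FLM_G. Scarb1, the HDL receptor, was at 9.62 ± 0.16, 4.57 ± 0.34 and 20.1 ± 0.68 FPKM in the same order, so both followed the order of the synthesis enzymes. Gramd1b, a carrier of cholesterol from the plasma membrane, was lower in FLM_G than in BMM (log2 difference -2.21, adjusted p 7.98e-07). Npc2, the lysosomal cholesterol carrier, averaged 182, 168 and 200 FPKM in BMM, FLM_M and FLM_G, and its difference in FLM_M against BMM did not pass (adjusted p 0.0636).

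Fatty acid synthesis genes under SREBP1 moved mostly in the direction of the sterol enzymes. Of 12 tested, none was higher and 8 were lower in FLM_M against BMM (median log2 difference -0.32), and 8 were higher and 3 lower in FLM_G (median 0.85). Of all tested genes, 22.7% were called higher and 21.9% lower in FLM_M, and 33.8% and 34.1% in FLM_G. Acly, which makes cytosolic acetyl-CoA for both pathways, was at 27.1 ± 1.6 FPKM in BMM, 19.8 ± 2.2 in FLM_M and 49.0 ± 2.3 in FLM_G. Scd2, a stearoyl-CoA desaturase, was at 7.92 ± 0.15, 0.0129 ± 0.008 and 33.8 ± 1.6 FPKM in the same order, which is close to none in FLM_M. Its relative Scd1 averaged 0.147 FPKM in BMM and 15.1 in FLM_G and was listed at 0 in all FLM_M libraries (log2 difference of FLM_G from BMM 3.81, adjusted p 7.07e-11). Fasn, fatty acid synthase, rose in FLM_G (1.47, adjusted p 4.14e-07) and did not pass in FLM_M against BMM (-0.21, adjusted p 0.0674). Lpin1, a phosphatidate phosphatase, was higher in FLM_G than in BMM (1.78, adjusted p 0.00186) with uneven libraries of 10.1, 4.87 and 2.31 FPKM. Fads1 and Fads2, desaturases of polyunsaturated fatty acids, were lower in both fetal liver cultures than in BMM. Fads1 averaged 37.0 FPKM in BMM, 25.1 in FLM_M and 18.7 in FLM_G, and Fads2 averaged 9.59, 0.0188 and 3.19. In FLM_G against FLM_M, Fads1 was lower (-0.40, adjusted p 0.000261) and Fads2 higher (2.03, adjusted p 7.88e-08).

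Of 8 genes of LXR and cholesterol export, 3 were higher and 4 lower in FLM_M against BMM, and 3 were higher and 3 lower in FLM_G. Nr1h3, which encodes LXR-alpha, was at 4.24 ± 0.11 FPKM in BMM, 0.124 ± 0.039 in FLM_M and 25.0 ± 3.3 in FLM_G. The exporters Abca1 and Abcg1 went in different directions: Abca1 averaged 4.02, 7.44 and 0.788 FPKM in BMM, FLM_M and FLM_G, and Abcg1 averaged 4.35, 3.62 and 126. Apoe, which encodes an apolipoprotein that accepts exported cholesterol, was at a mean of 170 FPKM in BMM, 2.42 in FLM_M and 2.14 in FLM_G. Arl4c, a small GTPase gene and LXR target, averaged 25.1, 29.5 and 1.41 FPKM in BMM, FLM_M and FLM_G (log2 difference of FLM_G from BMM -3.44, adjusted p 8.13e-11). Smpdl3a, another LXR target, averaged 123, 143 and 132 FPKM, higher in FLM_M than in BMM (0.21, adjusted p 0.00735) and not called in FLM_G (0.10, adjusted p 0.102).

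**Figure D5:**
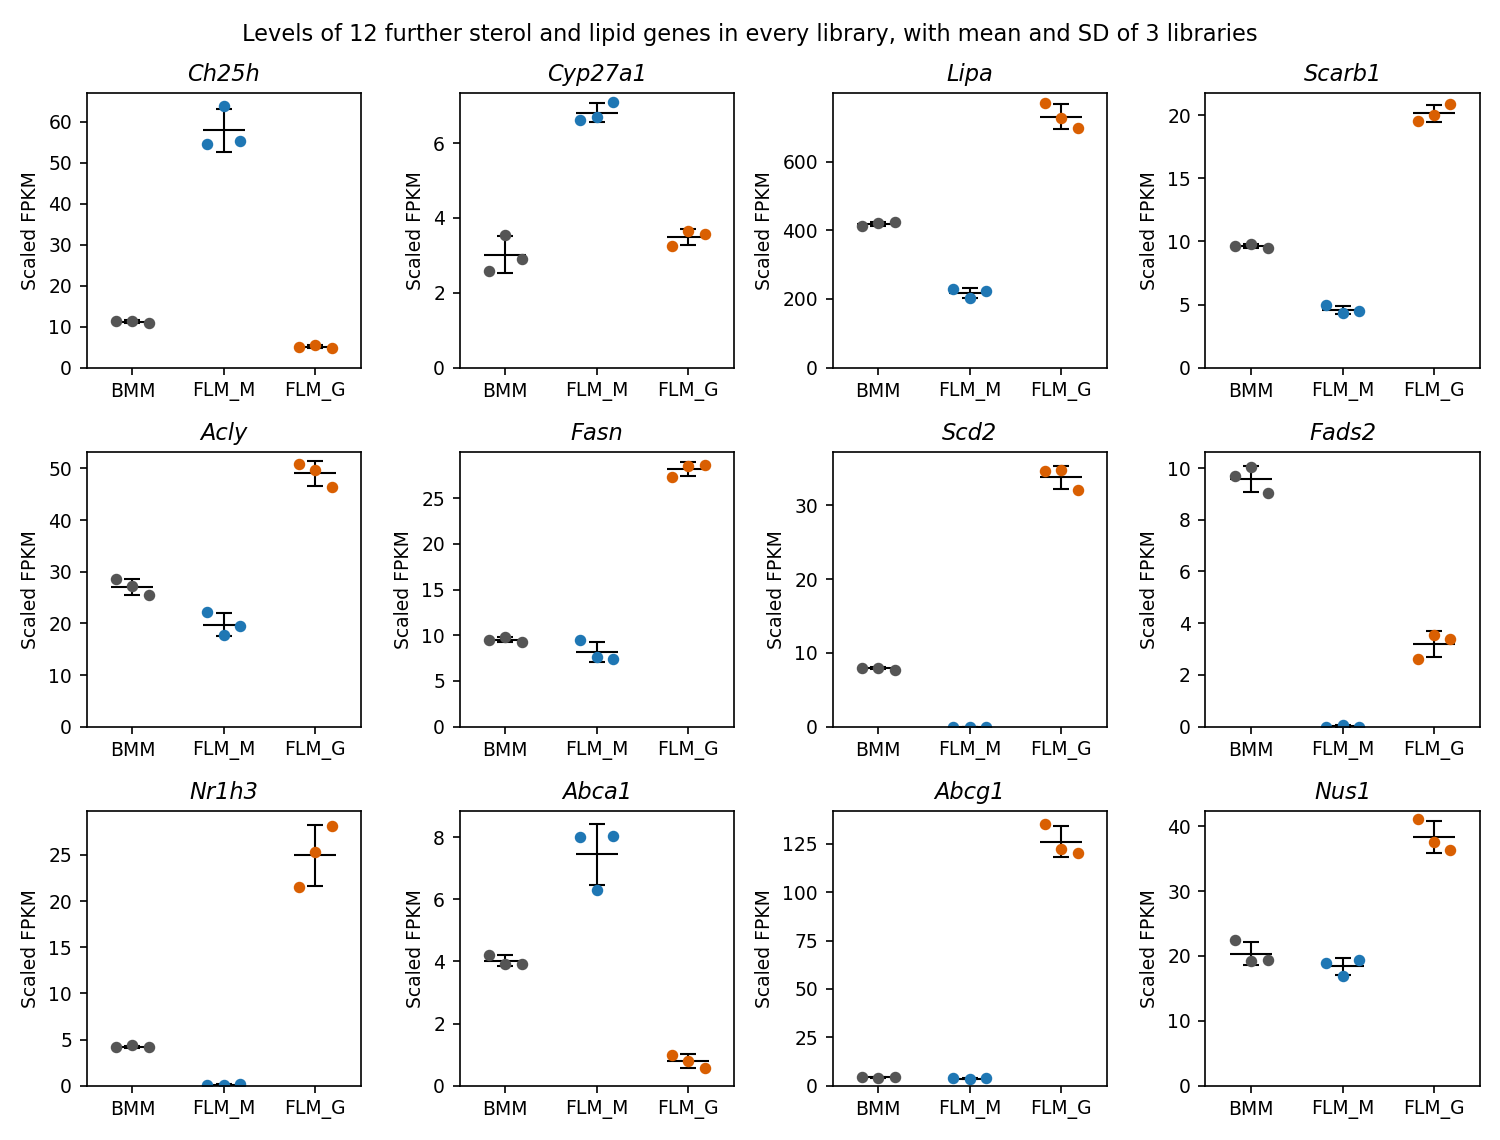
Scaled FPKM in every library for 12 genes of neighbouring sterol and lipid pathways, with a separate linear axis from 0 for each gene; horizontal lines are group means and bars are SD over 3 libraries. Ch25h and Abca1 are highest in FLM_M and lowest in FLM_G, while Lipa, Scarb1 and Acly follow the order of the synthesis enzymes.

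Cell cycle genes moved with the comparison between FLM_G and the other cultures. All 14 cell cycle genes listed were called lower in FLM_G than in BMM (median log2 difference -1.31) and than in FLM_M. Of all tested genes, 34.1% and 35.1% were called lower in these comparisons. The summed level of the 14 genes was 721 to 750 FPKM in BMM, 734 to 750 in FLM_M and 290 to 310 in FLM_G. Their part in the levels of the 27 genes was not tested. Of the hepatocyte markers above 1 FPKM, Afp and Trf, the summed level with the 6 markers at 0 was 6.43 to 7.13 FPKM in BMM, 29.0 to 37.1 in FLM_M and 120 to 135 in FLM_G. Trf made up most of this sum, at means of 5.01, 31.7 and 127 FPKM in BMM, FLM_M and FLM_G. Afp averaged 1.79, 2.19 and 0.91 FPKM and was lower in FLM_G than in BMM (log2 difference -0.55, adjusted p 0.00102). Neutrophil markers exceeded 1 FPKM only through S100a8, at a summed 1.84 to 2.31, 9.51 to 12.3 and 49.7 to 56.7 FPKM. Of the erythroid and endothelial markers, Epor exceeded 1 FPKM in both fetal liver cultures, Kdr in FLM_M and Cdh5 in FLM_G. Fibroblast, mast cell, dendritic and lymphoid markers were each below 1 FPKM in every group. The part of cells other than macrophages in the levels of the 27 genes was not tested.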

How the data were processed

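RNA of 9 macrophage libraries (3 each of BMM, FLM_M and FLM_G) was made into stranded mRNA libraries and sequenced single-end over 101 cycles, per the labels' protocols. Per the submitters' processing notes, bcl2fastq, FastQC, cutadapt, HISAT2, StringTie and DESeq2 were used with builds mm10 and GRCm38; their versions and roles are not given in the sources used here. The authors deposited 2 tables over 46078 genes. One holds FPKM per gene and library, as deposited by the authors, and was the main measure. The other holds whole-number read counts, deposited without normalization, which sum to 782400 to 1170813 per library and for Fdft1 ran against its FPKM and with the overlapping opposite-strand gene Ctsb. The counts therefore served only as an alternative, and the cause was not tested.

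Scaling between libraries used TMM factors from edgeR 4.0.16, computed on the FPKM (0.80 to 1.14). The test was limma 3.58.1 with a trend, in R 4.3.3, applied to log2(scaled FPKM + 1) of genes that reached 1 FPKM in 3 or more libraries, with a mean per group over 9 libraries and 6 residual degrees of freedom, and Benjamini-Hochberg adjustment over all 11952 genes. Fold changes on that scale understate the change of low genes, and ratios are of mean scaled FPKM. The script was tested on simulated data. Gene overlaps come from GENCODE M21 (GRCm38).

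All 27 genes are named. From the other lists, up to 4 genes per comparison are named, those that passed the test with the largest change and at least 5 FPKM in the higher group, plus genes that did not pass but had at least 50 FPKM; 1 gene so selected is not reported here. The members and lists were chosen with earlier results of these data known. Alternatives were other scalings, filters and pseudocounts, a test against 1.5-fold, fits on 6 libraries, with a replicate block or without each library, and edgeR and DESeq2 1.42.0 on the counts.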

Additional observations from a re-analysis of the deposited data

How the results depend on the processing

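Counts of members called stayed within 1.5 times of those reported under RLE and upper-quartile scaling, no filter, a 5 FPKM filter and a pseudocount of 0.1; among single genes Scap in FLM_G against BMM lost its call under upper-quartile scaling (adjusted p 0.0565) and no filter (0.0658). Differences of 11, 17 and 19 of the 27 members kept direction and call under every FPKM alternative in FLM_M against BMM, FLM_G against BMM and FLM_G against FLM_M. In that order of comparisons, leaving out 1 library gave 1 to 2, 20 to 22 and 23 members higher, 17 to 20, 1 to 2 and 2 to 3 lower, and 4192 to 5509, 7239 to 8063 and 7606 to 8242 of all genes called. Without scaling, members higher in FLM_M against BMM were 3, and members lower in FLM_G were 5 against BMM and 5 against FLM_M. Fitting only the 6 libraries compared gave 2 members higher in FLM_M against BMM. The replicate block also gave 2 there (Ggps1 added), and 19 lower; it changed no other count of members. Deviations of same-numbered libraries from their group means correlated weakly in the 3 comparisons (-0.0771 to 0.0899). In FLM_G against BMM the same-numbered pairs were all positive (0.0534 to 0.0899) and the other pairs all negative (-0.051 to -0.0232). Correlations this weak cannot tell whether the numbers pair the libraries. Against a 1.5-fold threshold, 1045, 2740 and 3162 genes were called, with 0 members higher and 9 lower in FLM_M against BMM, and 1 and 0 members lower in FLM_G against BMM and FLM_M.

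On the counts, edgeR called 1300, 2458 and 2855 of 7490 genes, with 0, 5 and 7 of the 12 members it tested higher and 3, 1 and 1 lower. DESeq2 called 838, 2195 and 2628 of 12694, 13019 and 13344 genes, with 0, 8 and 9 members higher and 1, 1 and 0 lower. Direction reversed on the counts (log2, edgeR then DESeq2) for Fdft1 in FLM_G against BMM (-1.20, -1.23) and FLM_M (-0.72, -0.67), Acat1 in FLM_M against BMM (0.65, 0.59) and FLM_G against FLM_M (-0.33, -0.33), and Sqle in FLM_G against BMM (-0.0049, -0.046). The reversed Acat1 and Sqle values did not pass (adjusted p 0.173 to 0.992). With DESeq2 alone, direction reversed for Mvk (0.060, SE 0.995) and Hsd17b7 (0.30, SE 1.27) in FLM_M against BMM. It also did so for Ggps1 in FLM_G against BMM (0.64, SE 0.786) and FLM_M (0.53, SE 0.736). None of these DESeq2 values passed (adjusted p 0.691 to 0.996), and the counts of Mvk, Hsd17b7 and Ggps1 were 0 to 8 per library. Without scaling, direction reversed in FLM_G against BMM for Acat1 (-0.29), Hsd17b7 (-0.16), Srebf2 (-0.24), Scap (-0.10), Insig2 (-0.14) and Soat1 (-0.40), and in FLM_G against FLM_M for Acat1 (-0.17) and Scap (-0.38). Against BMM, the reversed values of Acat1, Srebf2 and Soat1 passed (adjusted p 0.00141, 0.0467 and 0.00128). Against FLM_M, those of Acat1 and Scap passed (adjusted p 0.0238 and 0.00304). Hsd17b7 (0.17, adjusted p 0.14) and Soat1 (0.07, adjusted p 0.453) in FLM_G against FLM_M lost their calls without scaling. The cause was not tested. Groups of 3 libraries limit the precision of every value.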
